A study of Mus musculus with 9 samples.

Results

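The measurements concern 8 transcription factors of eye development and of the identity of the retinal pigment epithelium (RPE), which are Mitf, Otx2, Otx1, Tfec, Pax6, Sox9, Lhx2 and Six3. Their probes were found by name, as the probes other than controls whose gene name on the mouse arrays is 1 of these symbols. This gave 10 probes of 7 genes. Tfec was found under its older symbol Tcfec, by the accession NM_031198, so that 11 probes of all 8 genes were analysed, of 39429 probes of 31709 gene symbols. Mitf, Pax6 and Six3 had more than 1 probe each, and for them the brightest probe is called probe 1 and is the reported one.

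The RPE, the neural retina and the optic stalk arise from 1 sheet of progenitor cells, the eye field. Pax6, Six3 and Lhx2 are eye field factors, and Six3 and Lhx2 are known for their part in the formation of the neural retina and the optic cup. In the outer layer of the optic cup, Mitf, a basic helix-loop-helix leucine zipper factor, and the homeodomain factors Otx1 and Otx2 direct cells to the RPE fate and to pigmentation. Tfec is a close relative of Mitf that binds the same short DNA words, the E-boxes. Sox9 is an HMG box factor that is known in the adult eye from the RPE and from Müller glia, where it acts on visual cycle genes. Mitf is also the main factor of melanocytes, the pigment cells of the choroid, and Otx2 is also required in photoreceptors.

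The data are 9 dual-colour Agilent arrays of gene expression, of which 3 carried choroid (CH), 3 RPE and 3 photoreceptors (PR). The mice were C57BL/6 females, of the substrain C57BL/6JOlaHsd per the methods of the study, 6 months old with a range of 2 weeks per the sample labels, and somewhat younger per those methods. All 3 tissues were cut from frozen sections by laser dissection, the RPE was taken off before the CH was cut, and a whole eye went into each sample. On every array Cy5 marked the amplified tissue RNA, and Cy3 marked a common reference, RNA of RPE and choroid from mice of the same strain, sex and age. A log2(Cy5/Cy3) of 0 thus means the same signal as in the reference, which holds no dissected PR. Each value is such a log2 ratio, and each difference between tissues is a difference of the means of these ratios, so that a difference of 1 is a doubling. Nothing states that the eyes came from separate mice, and the p-values measure the spread between these samples. In such dissected tissue, fewer cells of a type and less RNA per cell cannot be told apart.

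The arrays lay on 3 slides. Slide 1 held CH and RPE replicates 1 and 3, slide 2 held replicate 2 of every tissue, and slide 3 held PR replicates 1 and 3. Slide 2 alone held PR beside the other tissues, so that tissue and slide are largely bound together in the comparisons with the PR. RPE replicate 2 stood apart, with 91.8% of its spots well above background in Cy5 against 63.1% to 71.9% on the other arrays. The RPE markers fixed for this work were called higher in the RPE than the CH for 5 of 8 genes. Among these, Ttr was saturated on all arrays of both tissues. Against the PR, 7 of 8 RPE markers were called higher in the RPE and 7 of 8 in the CH. Of the photoreceptor markers, 14 of 14 were called higher in the PR than in both other tissues. Best1 was the RPE marker not called against the PR, and Best1, Rgr and Kcnj13 were not called against the CH. The probe of Best1 was well above background on none of the CH arrays and on 1 array each of the RPE and the PR. The other 7 RPE markers were well above background on all arrays of every tissue.

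The sequences of both Pax6 probes are shown because they read different parts of the transcript. They are given 5′ to 3′ as deposited, on the plus strand of mm9. The bases of probe 1 lie together at chr2:105536454-105536513. The 60 bases of probe 2 are spread over 852 bases at chr2:105524098-105524949, so that it skips 792 bases of genome, as a probe over a splice junction does. Its second part was recognised from general knowledge as the alternatively spliced exon of the paired box, and was not checked against an annotation.
Pax6 probe 1: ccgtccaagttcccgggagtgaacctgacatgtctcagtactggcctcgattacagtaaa
Pax6 probe 2: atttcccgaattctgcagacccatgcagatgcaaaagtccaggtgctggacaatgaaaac

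A probe was called when its fold change (FC) was above 2.5 and its Benjamini-Hochberg (B-H) adjusted p-value from limma was below 0.01, and a second, wider rule asked only for an adjusted p-value below 0.05. Against the PR, 5 member probes of 4 genes (Mitf, Sox9, Lhx2 and Six3) were called higher in the RPE, where 10.3% of all probes were, and 0 were called higher in the PR, where 5.17% of all probes were. The same 4 genes and Tfec were called higher in the CH than the PR, with 6 probes of 5 genes against 12.0% of all probes, and again 0 probes the other way against 6.33%. In this comparison 7 of 8 RPE markers were also called higher in the CH, and the part of RPE RNA in the CH calls was not tested. At an unadjusted p below 0.05, 0 member probes were higher in the PR in either comparison as well. Between the RPE and the CH, 1 member probe, that of Otx2, was called higher in the RPE, where 0.185% of all probes were, and 0 were called higher in the CH (2 at an unadjusted p below 0.05), where 1.55% were. Under the wider rule, 5 probes of 5 genes differed between the RPE and the CH (22.4% of all probes), 8 probes of 6 genes between the RPE and the PR (50.1%) and 7 probes of 5 genes between the CH and the PR (53.7%). These shares of all probes are large for both comparisons with the PR, and the comparisons share arrays. The median difference over the 11 probes was 0.25 between the RPE and the CH, 1.07 between the RPE and the PR and 2.06 between the CH and the PR, and over all probes it was 0.04, -0.01 and -0.05. Without RPE replicate 2, the called member probes were 5 between the RPE and the PR and 0 between the RPE and the CH. With the slide as a block, 5 were called higher in the RPE than the PR and 5 higher in the CH than the PR.

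**Figure D1:**
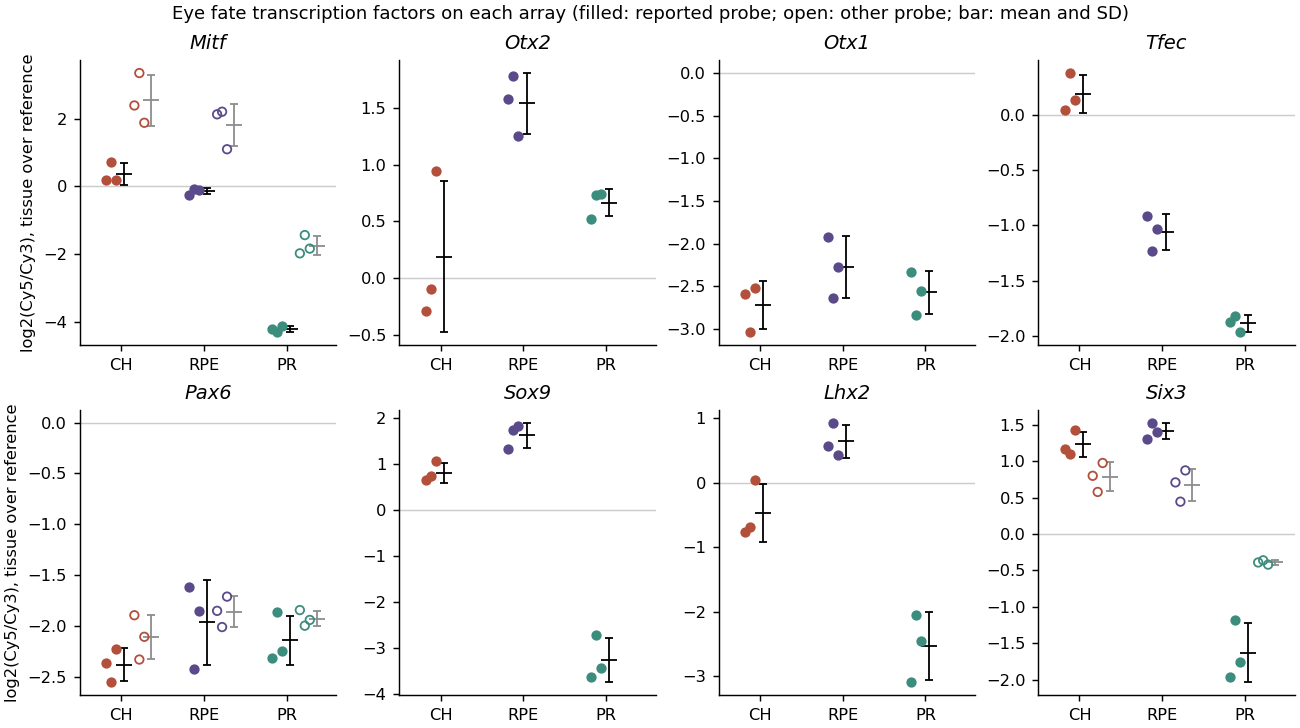
Log2(Cy5/Cy3) of the 8 genes on each array, by tissue, with the mean and SD of 3 arrays beside the points. Filled points are the reported probe and open points the other probe of Mitf, Pax6 and Six3. The vertical scale differs between panels. Mitf, Sox9, Lhx2 and Six3 sit far below the other tissues in the PR, Tfec falls from the CH to the RPE to the PR, Otx2 is highest in the RPE, and the arrays of Otx1 and Pax6 overlap between tissues.

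Mitf, the factor that switches on the pigment genes, was as high in the CH as in the RPE or higher, and far lower in the PR. At probe 1 (NM_001113198, mm9 chromosome 6, 97971229 to 97971288), log2(Cy5/Cy3) was 0.18, 0.73 and 0.18 in the CH, -0.25, -0.08 and -0.09 in the RPE and -4.19, -4.30 and -4.13 in the PR. The arrays of the 3 tissues did not overlap, and those of the PR lay apart from all others. The RPE was 4.07 above the PR (standard error 0.15, 16.8-fold, adjusted p = 2.65e-08, limma) and the CH was 4.57 above it (23.8-fold, adjusted p = 8.79e-09). The RPE was 0.50 below the CH, at -0.50 with a 95% confidence interval of -0.84 to -0.17 (adjusted p = 0.0374), which passed the wider rule only. With an array left out it passed that rule in 3 of 9 fits (adjusted p up to 0.12), and without CH replicate 2 it was -0.32. Within slide 1 this difference was -0.35 (adjusted p = 0.142) and on slide 2, with 1 array a tissue, -0.82. Probe 2 of Mitf (chromosome 6, 97968501 to 97968560) lay 3.56 higher in the RPE than the PR (adjusted p = 3.14e-05) and 4.28 higher in the CH than the PR (adjusted p = 6.81e-06). Its difference between the RPE and the CH was -0.73 (adjusted p = 0.224), and these arrays overlapped. Both probes were well above background on all 9 arrays.

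Tfec had the order CH, RPE, PR, with no overlap of arrays between any tissues. Its probe (chromosome 6, 16783720 to 16783779) gave 0.05, 0.38 and 0.13 in the CH, -0.91, -1.23 and -1.04 in the RPE and -1.87, -1.82 and -1.97 in the PR. The signal was low. It was well above background on all 3 CH arrays, on 1 RPE array and on 0 PR arrays, so that the CH was at least 2.92-fold and the RPE at least 1.12-fold above the PR (adjusted p = 3.01e-07 and 0.00024, limma). The RPE lay 1.24 below the CH, at -1.24 with an interval of -1.51 to -0.98 (adjusted p = 0.000201), which at 2.37-fold missed the fold threshold. Within slide 1 the difference was -1.06 (adjusted p = 0.0239) and on slide 2 it was -1.61. It was negative with any array left out, between -1.32 and -1.15. Tfec and Mitf, at its probe 1, were the members with a lower mean in the RPE than the CH under the wider rule.

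Melanocyte markers went the same way as this difference. Of them, Mlana, Dct, Tyrp1 and Pmel are also on the list of MITF or OTX2 targets below. Sox10 was at -0.27 (adjusted p = 0.0859, limma). Of 8 genes on the melanocyte list, 4 were called higher in the CH than the RPE and 0 higher in the RPE. The median difference was -1.34, with Dct and Tyrp1 at their saturated values. All 8 were called higher in the RPE and in the CH than the PR. The summed Cy5 signal of the list ran from 1147026 to 1297417 on the CH arrays, from 755057 to 914704 on the RPE arrays and from 147873 to 172740 on the PR arrays. All 8 markers were well above background on all arrays. Fibroblast markers went the same way, with 6 of 6 called higher in the CH than the RPE and a median difference of -2.41. Of the endothelial markers, 0 of 8 were called between the RPE and the CH. The part of the other cell types in the difference of Mitf and Tfec was not tested.

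The relatives of Mitf and Tfec, which bind the same E-boxes, were Tfe3 and Tfeb. Tfeb, a factor of lysosome genes, was called higher in the RPE than the PR at 1.46 (adjusted p = 1.96e-06) and in the CH than the PR at 2.03 (adjusted p = 1.61e-07). Tfe3 was 0.73 higher in the CH than the PR (adjusted p = 9.18e-05) and 0.23 higher in the RPE than the PR (adjusted p = 0.0707), and was not called. Both had means below the CH in the RPE, at -0.57 for Tfeb (adjusted p = 0.0048) and -0.51 for Tfe3 (adjusted p = 0.00468), past the wider rule and under the fold threshold.

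Otx2 was the only member called between the RPE and the CH. Its probe (NM_144841, chromosome 14, 49277855 to 49277914) gave -0.29, -0.09 and 0.95 in the CH, 1.58, 1.78 and 1.25 in the RPE and 0.53, 0.73 and 0.74 in the PR. Every RPE array lay above every CH and PR array. CH replicate 3 was the highest of the CH arrays and the nearest to the RPE. The RPE was 1.35 above the CH (standard error 0.28, 95% confidence interval 0.72 to 1.99, adjusted p = 0.00789, limma), which is 2.55-fold and just past the threshold. On this difference the probe ranked 89 of 39429. The RPE was 0.87 above the PR (1.83-fold, adjusted p = 0.0265), past the wider rule only and in 5 of 9 fits with an array left out. The CH and the PR overlapped, at -0.48 (adjusted p = 0.187), which became -0.86 (adjusted p = 0.00179) without CH replicate 3.

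The call of Otx2 against the CH was near its limit. It was kept under 6 of 14 tested alternatives (adjusted p from 0.00607 to 0.192), and the lowest difference, with the deposited series table, was 0.67. These 6 include the same fit with looser thresholds, an FC above 2 or an adjusted p below 0.05 alone, which any called probe passes. With an array left out it was kept without CH replicate 3 only, at 1.73, and lost without any of the other 8, where the adjusted p was 0.0361 at most. With the slide as a block it was 1.35 (adjusted p = 0.0159), within slide 1 it was 1.09 (adjusted p = 0.192) and on slide 2 it was 1.88. Median centring of the log ratios in place of loess gave 1.02, and the Cy5 channel alone 0.70. The difference was positive under every alternative run. RPE markers moved with it, as 5 of 8 were called higher in the RPE than the CH. Among these, Ttr was saturated on all arrays of both tissues. No median is given because Rpe65, Rgr, Ttr and Rdh5 were saturated on all RPE arrays. Photoreceptor markers had a median difference of 0.55, with 0 of 14 called (8 of 14 at an unadjusted p below 0.05). Under the wider rule 3 were higher in the RPE and 0 in the CH. The summed Cy5 signal of these photoreceptor markers ran from 872092 to 1302581 on the CH arrays, from 1260707 to 1591588 on the RPE arrays and from 3143169 to 4716839 on the PR arrays. On the PR arrays 8 of the 14 were saturated at least once, and 0 on the CH or RPE arrays, so the PR sums are too low. By log ratio, with saturated spots at their values, their median difference between the RPE and the PR was -3.48. The part of photoreceptor RNA in the difference of Otx2 was not tested.

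**Figure D2:**
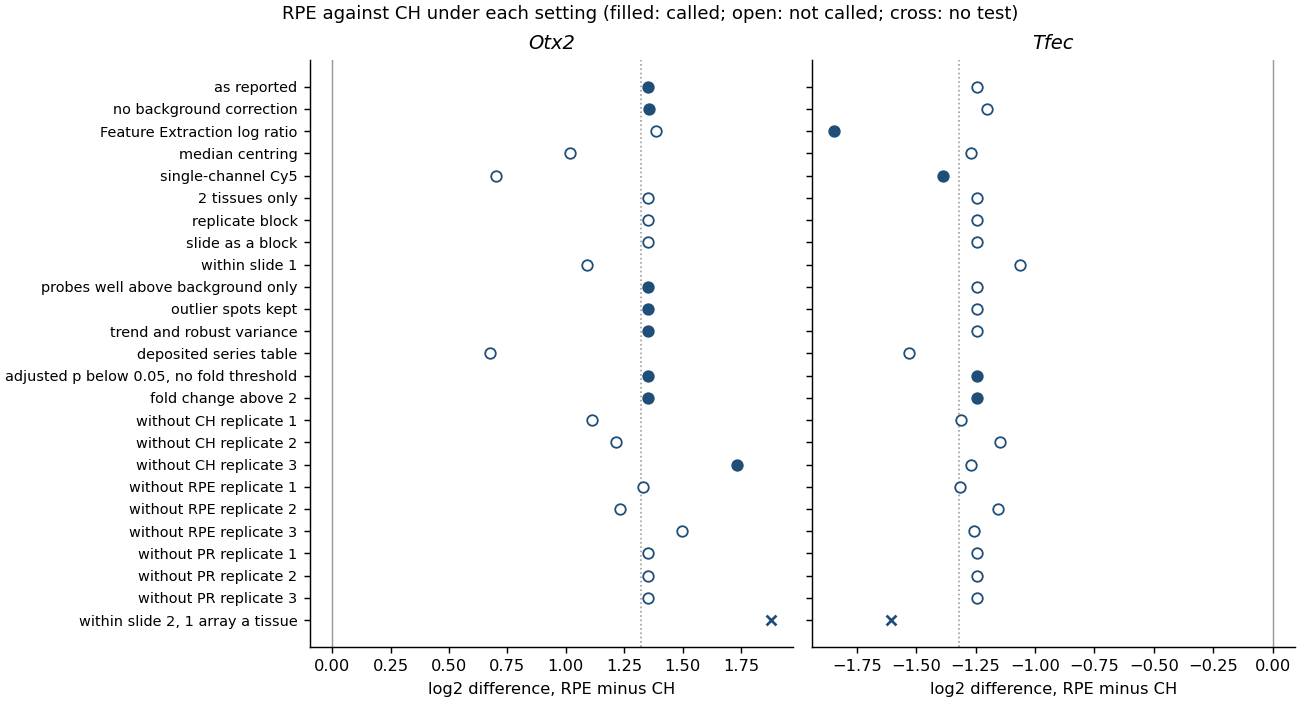
Log2 difference between the RPE and the CH for Otx2 (left) and Tfec (right) under each way of processing the arrays. Filled points were called by the thresholds of their own setting, which are looser in some settings, and open points were not. Crosses had 1 array a tissue and no test, and the dotted line is an FC of 2.5. Otx2 stays between 0.67 and 1.88 and Tfec between -1.85 and -1.06, with most points close to the dotted line.

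Otx1, the second RPE-directing homeodomain factor of the optic vesicle, had a low signal and no difference past either rule without a block. Its probe (NM_011023, chromosome 11, 21895767 to 21895826) gave -2.59, -3.04 and -2.52 in the CH, -1.92, -2.64 and -2.27 in the RPE and -2.33, -2.83 and -2.56 in the PR. It was well above background on 0 CH, 2 RPE and 1 PR arrays, and the arrays of all tissues overlapped. No fold is given between the RPE and the CH (adjusted p = 0.177), since no CH array was well above background, and the RPE was 0.30 above the PR with an interval of -0.17 to 0.77 (adjusted p = 0.279). With the replicate number or the slide as a block, the RPE against the CH passed the wider rule (adjusted p = 0.0225 and 0.0303). Crx, the photoreceptor member of this family, was 2.98 lower in the RPE than the PR, at -2.98 (adjusted p = 7.12e-07), and was called. It was 0.65 higher in the RPE than the CH (adjusted p = 0.0332), past the wider rule only.

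Sox9 had the largest difference between the RPE and the PR of all members. Its probe (NM_011448, chromosome 11, 112648809 to 112648868), spotted 10 times on each array, gave 0.64, 0.74 and 1.05 in the CH, 1.32, 1.73 and 1.83 in the RPE and -3.62, -2.71 and -3.44 in the PR. No arrays overlapped between tissues. The RPE was 4.88 above the PR (standard error 0.23, 29.5-fold, adjusted p = 1.20e-07, limma) and the CH 4.07 above it (16.8-fold, adjusted p = 2.88e-07). The RPE was 0.81 above the CH with an interval of 0.29 to 1.34 (adjusted p = 0.0325), past the wider rule only and in 5 of 9 fits with an array left out (adjusted p up to 0.109). Within slide 1 this was 0.73 (adjusted p = 0.136) and on slide 2 it was 0.99. Of 10 markers of Müller glia, from which Sox9 is also known, 3 were called higher in the RPE than the PR and 1 lower, with a median of -0.24. Their summed Cy5 signal was 594226 to 608121 on the CH arrays, 417435 to 494161 on the RPE arrays and 253015 to 346292 on the PR arrays, and their part in the differences of Sox9 was not tested.

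Of the relatives of Sox9, Sox10, a factor of melanocytes and other neural crest cells that is also on the melanocyte list, was called 2.69 higher in the RPE than the PR and 2.96 higher in the CH than the PR (adjusted p = 1.15e-08). It was -0.27 between the RPE and the CH (adjusted p = 0.0859). Sox8 was at -0.96 between the RPE and the PR (adjusted p = 0.0143) and at -0.79 between the RPE and the CH (adjusted p = 0.0682).

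Lhx2, a LIM homeodomain factor without which the optic vesicle stops developing, had the order RPE, CH, PR. Its probe (NM_010710, chromosome 2, 38224933 to 38224992) gave -0.77, -0.69 and 0.05 in the CH, 0.57, 0.93 and 0.44 in the RPE and -3.09, -2.05 and -2.46 in the PR. No arrays overlapped, and CH replicate 3 was again nearest to the RPE. The RPE was 3.18 above the PR (9.08-fold, adjusted p = 8.51e-06, limma) and the CH 2.06 above it (4.18-fold, adjusted p = 0.000156). The latter call was lost with the slide as a block, at 1.61 (adjusted p = 0.0145). Against the CH, the RPE was 1.12 higher with an interval of 0.47 to 1.76 (2.17-fold, adjusted p = 0.0203), which was not called. Without CH replicate 3 it reached 1.38 and was called, and with an array left out it passed the wider rule in 5 of 9 fits. Within slide 1 it was 0.86 (adjusted p = 0.142) and on slide 2 it was 1.63. Lhx9, its closest relative, was well above background on 1 CH, 1 RPE and 2 PR arrays and was not called, with -0.20 between the RPE and the PR (adjusted p = 0.25).

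Six3, a homeodomain factor known for keeping the neural retina and not the RPE fate, was as high in the RPE as in the CH and low in the PR at its bright probe. Probe 1 (NM_011381, chromosome 17, 86023349 to 86023408) gave 1.17, 1.10 and 1.43 in the CH, 1.30, 1.53 and 1.40 in the RPE and -1.96, -1.18 and -1.75 in the PR. The RPE and the CH overlapped and both lay above all PR arrays. The RPE was 3.04 above the PR (8.24-fold, adjusted p = 5.63e-07, limma) and the CH 2.87 above it (7.29-fold, adjusted p = 6.58e-07). Between the RPE and the CH the difference was 0.18 with an interval of -0.24 to 0.59 (adjusted p = 0.565). Probe 2 (ENSMUST00000043819, chromosome 17, 86030070 to 86030129) was well above background on 1 RPE array and on no other. It gives a bound only, of at least 1.15-fold in the RPE over the PR (adjusted p = 9.02e-05), and was not called. Six6, the relative of Six3, went the other way, with -1.27 between the RPE and the PR (adjusted p = 0.00142, under the fold threshold) and -1.61 between the CH and the PR (adjusted p = 0.000259, called).

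Pax6, the eye field factor that works in the neural retina, the RPE precursors and the lens, did not differ past either rule at any of its probes as fitted without a block. Probe 1 (NM_013627) gave -2.37, -2.55 and -2.23 in the CH, -1.62, -2.43 and -1.85 in the RPE and -2.32, -1.87 and -2.25 in the PR. Probe 2 gave -1.90, -2.33 and -2.11 in the CH, -1.85, -2.01 and -1.71 in the RPE and -1.85, -2.0 and -1.94 in the PR. All arrays were below the reference, and the tissues overlapped at both probes. The RPE minus the CH was 0.42 at probe 1 (interval -0.04 to 0.88, adjusted p = 0.19) and 0.25 at probe 2 (interval -0.03 to 0.54, adjusted p = 0.203). The RPE minus the PR was 0.18 (interval -0.28 to 0.64) and 0.07 (interval -0.22 to 0.36), with adjusted p-values of 0.513 and 0.692. The CH minus the PR was -0.24 (interval -0.70 to 0.22, adjusted p = 0.366) and -0.18 (adjusted p = 0.264). With the slide as a block, probe 1 passed the wider rule between the CH and the PR, at -0.83 (adjusted p = 0.00972), and between the RPE and the CH, at 0.42 (adjusted p = 0.0427). It also passed between the RPE and the CH without RPE replicate 2, at 0.65 (adjusted p = 0.028), and probe 2 passed between the CH and the PR with the Feature Extraction log ratio, at -0.50 (adjusted p = 0.00982). Pax2, the optic stalk relative of Pax6, was at 0.30 between the RPE and the CH (adjusted p = 0.0948) and at -0.05 between the RPE and the PR (adjusted p = 0.748). Markers of inner retinal neurons, which include the main Pax6 cells of the adult retina, were well above background for 16 of 16 genes on all arrays. In limma, 0 of 16 were called between the RPE and the CH (5 at an unadjusted p below 0.05). Under the wider rule 2 were higher in the RPE and 1 in the CH. Between the RPE and the PR 2 were called higher in the RPE and 3 higher in the PR.

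**Figure D3:**
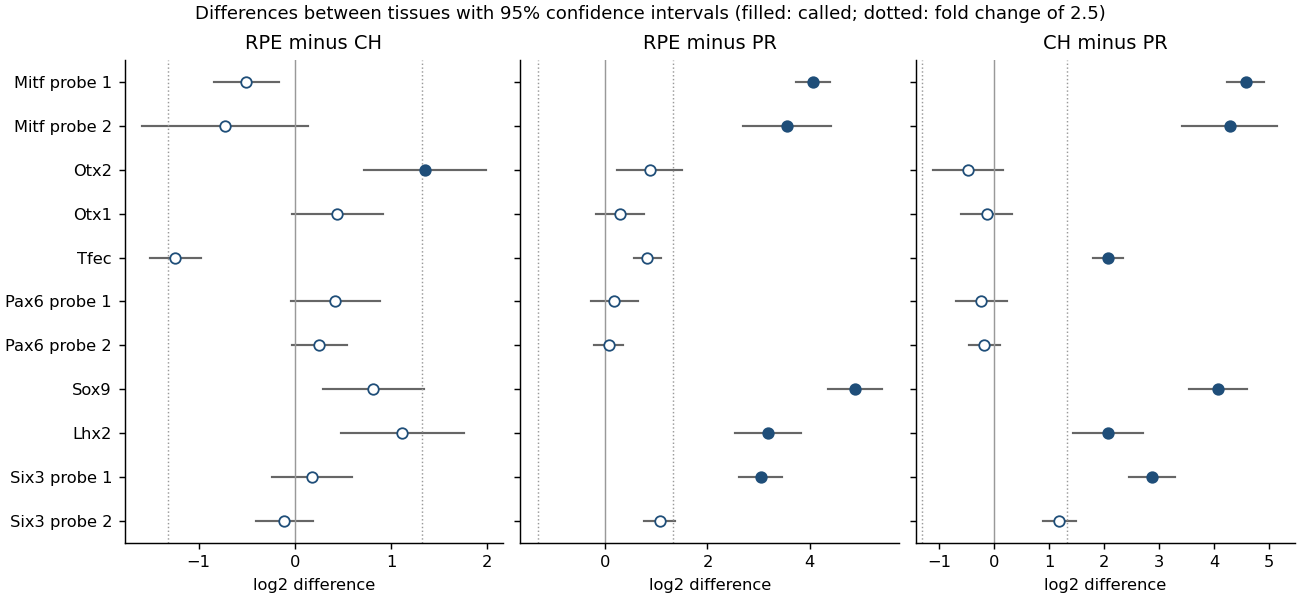
Log2 differences between tissues for the 11 probes, with 95% confidence intervals from limma. Filled points were called, and dotted lines mark an FC of 2.5. Between the RPE and the CH, Otx2 at 1.35 is the only filled point and lies on the dotted line, whereas Mitf, Sox9, Lhx2 and Six3 probe 1 are 3.04 or more above the PR in the RPE.

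The 8 genes fell into different orders of tissues. For Mitf probe 1 and Tfec the order was CH, RPE, PR, and for Sox9 and Lhx2 it was RPE, CH, PR. Neighbours were apart under the wider rule, and of the differences of these 4 genes between the RPE and the CH that of Tfec alone passed this rule in all 9 fits with an array left out, while those of Mitf, Sox9 and Lhx2 did not. For Six3 probe 1 it was RPE, CH, PR, where the RPE and the CH did not differ beyond their spread. For Otx2 it was RPE, PR, CH, where the PR and the CH did not. For Otx1 and Pax6 no neighbours differed beyond their spread without a block.

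The other factors of the eye field and the optic cup were measured with a list of 26 genes. Of these, 0 were called between the RPE and the CH by limma (12 at an unadjusted p below 0.05), with a median difference of 0.18. Under the wider rule, which 22.4% of all probes passed, 2 were higher in the RPE and 5 in the CH. The largest differences were those of Nr2e1, a nuclear receptor of retinal progenitors, at 1.08 (adjusted p = 0.00544), Sox11 at -1.02 (adjusted p = 0.00142), Foxd1, a factor of the temporal optic cup, at -0.94 (adjusted p = 0.00158) and Mab21l1 at 0.91 (adjusted p = 0.00266). All 4 were under the fold threshold. Against the PR, 9 genes were called higher in the RPE and 3 lower, and 10 were called higher and 6 lower in the CH. The largest were Klf4 at 4.38, Yap1 at 4.15, Nr2e1 at 3.95 and Hes1 at 3.75 higher in the RPE than the PR, with adjusted p-values of 2.55e-07, 4.73e-09, 2.19e-07 and 6.68e-08. Yap1, a coactivator that is known to act in the choice of the RPE fate, and its partner Tead1, at 2.22, were among the genes called higher in the RPE. Rax, the eye field factor that stays on in photoreceptors, was called lower, at -2.70 (adjusted p = 7.29e-06). The 8 family relatives named above, of which Six6 and Pax2 are also on this list, gave 2 called higher in the RPE than the PR and 1 lower. Between the RPE and the CH, 0 were called (6 of 8 at an unadjusted p below 0.05). Under the wider rule 1 relative was higher in the RPE and 2 in the CH.

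Genes known as targets of MITF or OTX2 in pigment cells or the RPE were measured with a list of 24 genes, of which 23 had a probe. Against the PR, 21 of 23 were called higher in the RPE and 21 in the CH, 0 were called lower, and the median difference, with saturated spots at their values, was 4.13 and 3.94. Between the RPE and the CH the list split, with 5 genes called higher in the RPE and 6 higher in the CH around a median of -0.17. The 5 called higher in the RPE were Rlbp1, Rdh5, Rpe65, Lrat and Ttr, which carry or process retinoids or bind their transport protein. Ttr was saturated on all arrays of both tissues, so that its call gives neither a sure direction nor a size. The 6 that were higher in the CH were Tyrp1, Pmel, Mlana, Slc45a2, Gpnmb and Mcoln3. Tyrp1, Pmel, Mlana and Slc45a2 are melanosome genes, and Tyrp1, Pmel and Mlana are on the melanocyte list above, as all 5 of the former group are on the RPE marker list. Other pigment genes were not called and went both ways. Oca2 at 0.37 (adjusted p = 0.184, limma), Tyr at 0.68 (adjusted p = 0.00872) and Rab27a at 0.79 (adjusted p = 0.013) had a higher mean in the RPE. Trpm1 at -1.08 (adjusted p = 0.00151), Slc24a5 at -0.24 (adjusted p = 0.418) and Gpr143 at -0.17 (adjusted p = 0.351) had a lower mean there. So did Dct, which was saturated on all arrays of both tissues. Mfrp had no probe, and Best1 and Bcl2 were the 2 genes not called against the PR.

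By measured values, the largest differences between the RPE and the CH were those of Tyrp1, Mcoln3, Lrat and Slc45a2, and saturated genes such as Rpe65, Rdh5 and Ttr have no exact place in this order. Tyrp1, an enzyme of melanin synthesis, was saturated on all 3 CH arrays, which puts the CH 1.40-fold or more above the RPE (adjusted p = 0.000118, limma). Mcoln3, an ion channel of endosomes and melanosomes, was at -2.01 (adjusted p = 0.000138) and Slc45a2, a melanosome transporter, at -1.85 (adjusted p = 5.9e-05). Lrat, which makes retinyl esters, was 1.90 higher in the RPE (adjusted p = 0.00223). Against the PR, the RPE was 7.35 higher for Lrat, 7.08 for Oca2, a melanosome protein, and 6.77 for Kcnj13, a potassium channel of the RPE, with adjusted p-values of 5.02e-08, 5.62e-09 and 9.7e-08. The spots of Lrat were saturated on 1 RPE array and those of Kcnj13 on 2, so that these values are not exact. Rdh5, a retinol dehydrogenase of the visual cycle, was saturated on all 3 RPE arrays, which puts them at least 6.93-fold above the PR. In comparison, Mitf itself was -0.50 between the RPE and the CH and Otx2 was 1.35.

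**Figure D4:**
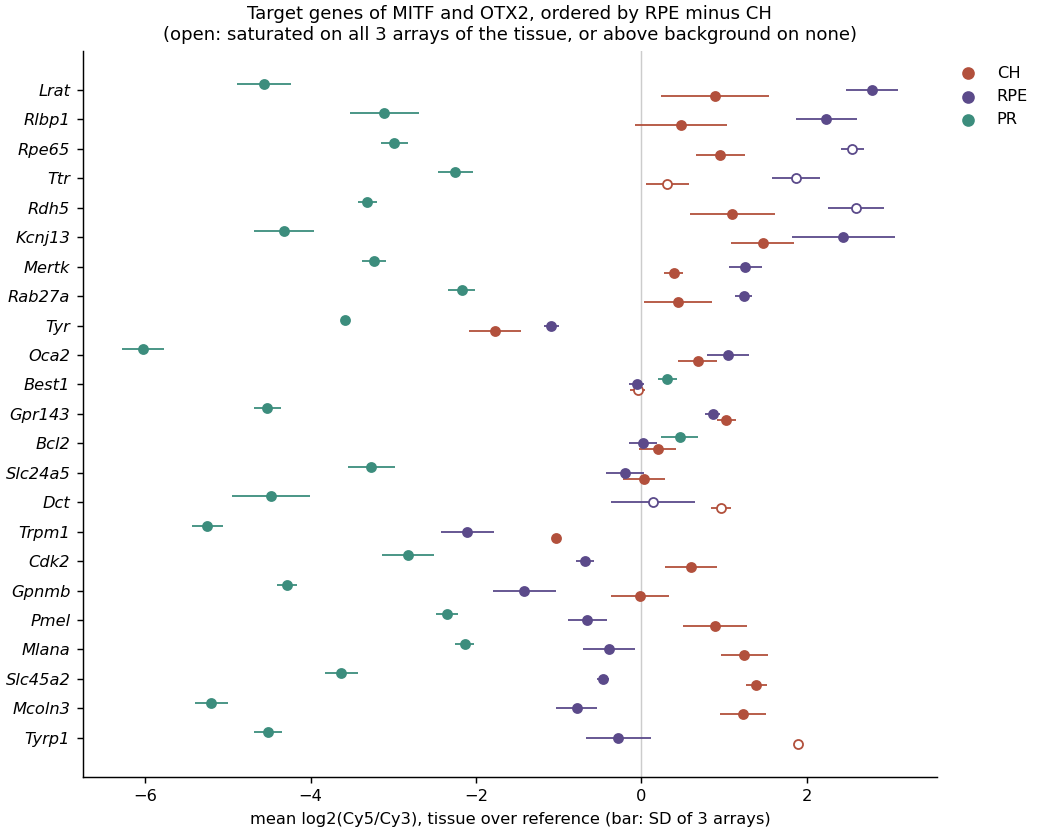
Mean log2(Cy5/Cy3) with SD (3 arrays) of the 23 target genes in the CH, the RPE and the PR, ordered by the difference between the RPE and the CH. Open points mark a tissue in which the probe was saturated on all 3 arrays or above background on none. The 5 genes called higher in the RPE and the 6 called higher in the CH lie at opposite ends, and the PR is lowest for 21 genes.

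Promoters of these target genes were searched for the DNA words of the members, in windows from 250 bases before to 50 bases after each gene's start in RefSeq (GRCm38.p6). The words were CATGTG and CACGTG, E-box forms bound by MITF and TFEC, and TAATCC, the core word of OTX factors, on both strands, and no matches overlapped in the promoters named here. Of the 24 genes, 19 had a promoter in the table, 21 promoters in all. CATGTG was in 10 of the 21 (47.6%) against 14.2% of 32851 mouse promoters, CACGTG in 2 (9.52%) against 7.15%, and TAATCC in 6 (28.6%) against 7.06%. Some of the target genes are known as such from these words, so the shares are a description of the list. Of the members themselves, 6 genes had 13 promoters, of which 1 promoter of Otx2 held CATGTG, 0 held CACGTG, and 1 promoter each of Mitf and Otx2 held TAATCC.

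The promoters of Tyrp1, Rpe65 and Rlbp1 are printed because they hold these words and come from both sides of the split between the CH and the RPE. Tyrp1 was higher in the CH. Rlbp1 was higher in the RPE, at 1.76 (adjusted p = 0.00316), and so was Rpe65 (adjusted p = 0.00023), for which no fold is given because it was saturated on all 3 RPE arrays. Capitals mark the words, on the strand of the gene and 5′ to 3′, where CACATG and GGATTA are the reverse complements of CATGTG and TAATCC. In Tyrp1 (chr4:80833963-80834262, plus strand) CATGTG begins at base -46 from the start and GGATTA at base 5. In Rpe65 (chr3:159598931-159599230, plus strand) CACATG begins at base -239 and GGATTA at base -42. In Rlbp1 (chr7:79386978-79387277, minus strand) CACATG begins at base -124.
Tyrp1 promoter: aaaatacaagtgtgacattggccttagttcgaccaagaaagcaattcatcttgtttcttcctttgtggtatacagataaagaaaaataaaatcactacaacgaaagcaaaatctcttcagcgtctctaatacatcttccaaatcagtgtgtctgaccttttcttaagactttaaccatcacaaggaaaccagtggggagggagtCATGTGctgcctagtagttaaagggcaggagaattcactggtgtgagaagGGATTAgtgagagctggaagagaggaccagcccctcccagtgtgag
Rpe65 promoter: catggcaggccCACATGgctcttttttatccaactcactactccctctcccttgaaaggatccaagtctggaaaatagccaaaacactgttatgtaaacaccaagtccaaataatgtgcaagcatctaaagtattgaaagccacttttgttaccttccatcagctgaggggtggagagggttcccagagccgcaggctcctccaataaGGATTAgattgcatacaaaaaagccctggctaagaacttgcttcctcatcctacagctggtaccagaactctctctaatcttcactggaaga
Rlbp1 promoter: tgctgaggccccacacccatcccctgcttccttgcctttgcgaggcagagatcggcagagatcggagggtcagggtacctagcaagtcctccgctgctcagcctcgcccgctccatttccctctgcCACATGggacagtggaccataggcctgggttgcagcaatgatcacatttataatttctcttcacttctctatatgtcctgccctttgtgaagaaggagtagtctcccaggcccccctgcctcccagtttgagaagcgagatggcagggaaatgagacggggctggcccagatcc
These matches are letters in a window, and nothing on these arrays measured binding.

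For each member, the genes with the most similar log2(Cy5/Cy3) over the 9 arrays were found by Pearson's r among 26568 probes that were well above background on all arrays of at least 1 tissue. The arrays fall into 3 tissues, so that a high r mostly means the same order and distance of tissues. Mitf was most like Fes, Vrk2 and Klf2 (r = 0.999 for Fes), and Tfec most like Gm829, Afp and Fcrl1 (r = 0.999 for Gm829). Sox9 was most like Gprc5b, Hid1 and Shtn1 (r = 0.998 for Gprc5b), and Six3 most like Dab2ip, Gnai1 and Sfxn1 (r = 0.999 for Dab2ip). Lhx2 was most like Cutal, Rlbp1 and Omg, with r = 0.993 for Rlbp1, the retinaldehyde-binding protein of the RPE and a gene of the target list. Otx2 was most like Hibch (r = 0.976), Rpap3 and Mettl15. Otx1 was most like Myl1 (r = 0.954), Cox5b and Slc32a1, and Pax6 most like Ttc34 (r = 0.931), Mab21l2, an eye development gene of the list above, and Apba2.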

How the data were processed

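The authors extracted 9 dual-colour arrays with Agilent Feature Extraction 9.5.3.1 and worked in R 2.14.0 with limma. The deposited output gives, per spot, scanned intensity values (mean signal, median background). A table from the authors holds log2 values of Cy5 whose normalization is not named in the sources used here, and its scale was checked against log2 Cy5 (correlation 0.985 to 0.999 per array). Its column medians lay between 9.38 and 9.55, and it was used as an alternative only.

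Starting from the deposited intensities, normexp (offset 50) removed the background, and loess was run on log2(Cy5/Cy3) of each array. Controls and outlier spots (228 to 586 per array) were left out, and the spots of each of 39429 probes were averaged. Tissue means were fitted to all 9 arrays with limma 3.58.1 in R 4.3.3, with the B-H adjustment over all probes, and tested on simulated data. Bounds, signal sums and brightness come from Cy5 after loess and Aquantile, open to dye bias as no dyes were swapped. A bound sets the brighter tissue against the lowest signal well above background, or a saturated spot at its value. Figures and counts used Python 3.11.15, numpy 2.4.6, pandas 2.3.3 and matplotlib 3.10.9.

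Genes were named through a RefSeq table (GRCm38.p6) by accession for 26055 probes, by symbol for 3195 and by an older symbol for 930, and 9249 kept the name in the files. Probe positions are those of the files (mm9). All member probes are reported, with the brightest as the reported probe, the 3 most similar genes of each, all family relatives and, in each list, the 4 genes with the largest difference between the RPE and the CH and the 4 against the PR, each at its brightest probe. Other genes named were chosen after their values were seen. Lists covered family relatives, eye field factors, targets and markers of RPE, photoreceptors, Müller glia, inner retina, melanocytes, endothelium and fibroblasts. The members and lists were chosen with earlier results of these data known. Endothelial markers gave 0 of 8 called between the RPE and the CH (0 at an unadjusted p below 0.05) and 7 of 8 called higher in both than the PR. Precision is limited by having 3 arrays a tissue. Alternatives covered background, normalization, reference channel, arrays fitted, replicate and slide blocks, dim and outlier spots, the variance model, the series table, thresholds, the other probe of a gene and each array left out.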

Additional observations from a re-analysis of the deposited data

How the results depend on the processing

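The number of member probes called between the RPE and the CH depended on the processing. Higher in the RPE was 1 probe, Otx2, which became 0 with the Feature Extraction log ratio, median centring, Cy5 alone, a fit on both tissues only, the replicate block, the slide as a block, within slide 1 and with the deposited series table, 3 at an adjusted p below 0.05 with no fold threshold, and 0 to 2 with an array left out. It was lost without any of 8 arrays and joined by Lhx2 without CH replicate 3. Higher in the CH was 0 probes, which became 1 (Tfec) with the Feature Extraction log ratio, Cy5 alone and an FC above 2, and 2 at an adjusted p below 0.05. Against the PR, 5 probes were called higher in the RPE and 6 in the CH with any array left out, and the former became 8 at an adjusted p below 0.05. The family list had 8 genes with a probe, the eye field list 26 and the target list 23, with Six6 and Pax2 on the first and the second. Of these genes, 40 were called in at least 1 comparison, also with any array left out. The share of all probes called in at least 1 comparison was not counted. Against the PR, 10.3% of all probes were called higher and 5.17% lower in the RPE, and 12.0% higher and 6.33% lower in the CH.

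Same-numbered arrays did not deviate together throughout (correlations from -0.08 to 0.29, and 0.16 or more on the shared slide 2). RPE 3 and PR 3, on different slides, were at 0.29. Arrays with different numbers were not compared, so this check cannot decide whether the numbers pair the samples. The replicate block left 5 and 6 called probes against the PR and 0 between the RPE and the CH, where Otx2 had an adjusted p of 0.011 and Otx1 passed the wider rule at 0.0225.

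These directions reversed. Pax6 probe 1 between the RPE and the PR became -0.074 (Feature Extraction), -0.15 (median centring), -0.064 (Cy5 alone), -0.42 (slide as a block), -0.094 (series table) and -0.56 (within slide 2, with 1 array a tissue). Pax6 probe 2 became -0.10, -0.12 (Cy5 alone), -0.047 (slide) and -0.16 (series table), and ran from -0.0037 to 0.15 with an array left out. Between the RPE and the CH, Six3 probe 1 became -0.084 with median centring and -0.11 at the other probe, and Six3 probe 2 became 0.048 (median centring), 0.024 (Cy5 alone) and 0.064 (series table), and ran from -0.21 to 0.0068 with an array left out. Otx1 between the CH and the PR ran from -0.27 to 0.019.

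Over all probes, 73 were called higher in the RPE and 612 in the CH, against 13 and 1170 with median centring, 24 and 381 with the series table and 409 and 1299 at an FC above 2. The first count was 30 with Cy5 alone. Leaving out CH replicate 2 made it 21, leaving out CH replicate 3 175, and leaving out RPE replicate 2 44. Calls higher in the RPE were 66.6% of those against the PR and 54.5% with the Feature Extraction log ratio, and for the CH 65.6% and 53.5%. Tfec, Otx1 and Six3 probe 2 are limited by signals near background.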
